A study of Mus musculus with 4 samples.

Results

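Liver RNA of mice was examined for 7 genes, Inmt, Nnmt, Pemt, Gamt, Tpmt, As3mt and Hnmt, which encode enzymes that transfer a methyl group to small molecules. All 7 symbols were found among the 24421 rows of the deposited table, and all 7 passed a mean of at least 1 FPKM (fragment counts divided by gene length and library depth), as did 11070 genes in all. The genes were chosen by name with the control and gelADSC values of these same libraries in view. Their own group differences are therefore given as a description, with no test.

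Both groups were mice that had undergone hepatectomy, removal of part of the liver. The control group (2 libraries, called control library 1 and 3 after their column names) received fibrin gel alone, and the gelADSC group (2 libraries, 2 and 3) received the same kind of gel carrying ADSC (adipose-derived stem cells). The sources used here do not give strain, age, sex, the time from surgery to sampling or the origin of the ADSC. Whether libraries of a group came from separate animals is also not given, so p-values measure the spread between these libraries, which may be technical. The libraries held an estimated 18100000 to 24400000 reads, worked out from the steps between low values, and the read counts below rest on these estimates. The liver label was borne out by Alb, serum albumin, at 22023 to 38330 FPKM in the 4 libraries.

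Methyltransferases of this kind take the methyl group from S-adenosylmethionine (SAM), which the liver makes from methionine, and leave S-adenosylhomocysteine behind. They differ in what they methylate. Inmt acts on indoleamines such as tryptamine, Gamt on guanidinoacetate to give creatine, Pemt on phosphatidylethanolamine to give phosphatidylcholine and Nnmt on nicotinamide, while Tpmt acts on thiopurine drugs, As3mt on inorganic arsenic and Hnmt on histamine. Creatine and phosphatidylcholine synthesis are regarded as major users of SAM in the liver, and Inmt and Nnmt are related proteins of 1 enzyme family.

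Transcripts of 2 of the 7 genes, Inmt and Gamt, were far higher in gelADSC, and the other 5 differed between the groups by at most 0.15 on the log2(FPKM + 1) scale. Inmt was 75.3-fold and Gamt 14.6-fold higher by the ratio of group means (n = 2 libraries each). In bulk liver, fewer cells of a type and less RNA per cell cannot be told apart. Groups did not overlap and lay at least 2-fold apart on that scale for these 2 genes, with 2 of 7 higher and 0 lower. Among all tested genes, 5.38% met the same description in the higher direction and 8.45% in the lower. Without the 2-fold condition, 69.8% of all tested genes had groups that did not overlap, against 2 of the 7 here. Nothing is read from these counts, since the genes were picked with the values known.

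**Figure D1:**
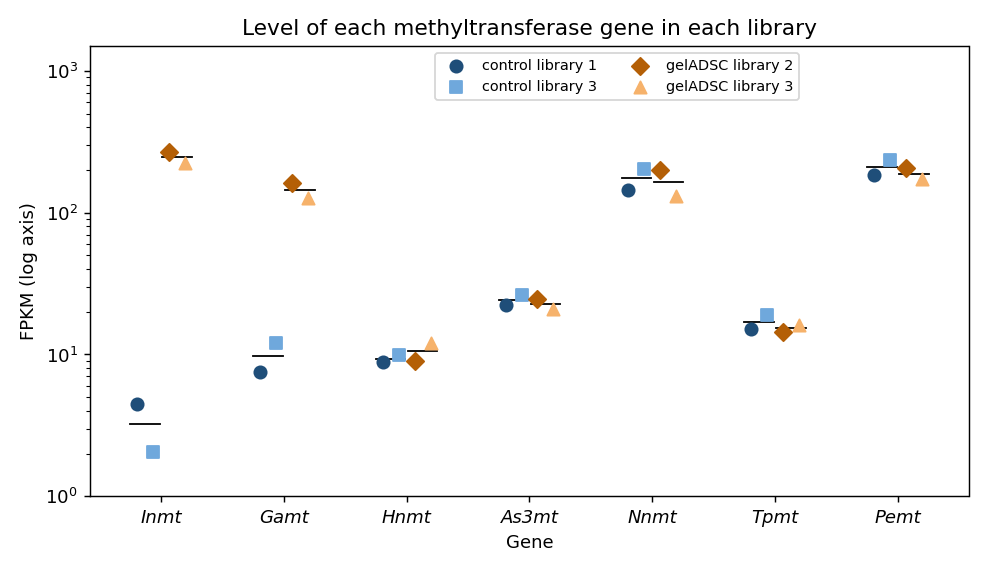
FPKM on a log axis (y) for the 7 genes (x), with 1 point per library and a black line at each group mean of 2 libraries. Inmt and Gamt sit higher in both gelADSC libraries, while the points of the other 5 genes interleave.

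Inmt, which methylates tryptamine and other amines, read 4.46 and 2.05 FPKM in control libraries 1 and 3, against 266 and 224 FPKM in gelADSC libraries 2 and 3. The means were 3.26 ± 1.71 and 245 ± 29.5 FPKM (SD, n = 2 each), a difference of 5.91 in mean log2(FPKM + 1), with a pooled SD within groups of 0.44. Both gelADSC values lay far above both control values, and the gap between the groups was much wider than that between libraries of a group. Behind the control values stood 91 reads in library 1 (95% exact Poisson interval 73.3 to 112 reads) and 38 in library 3 (26.9 to 52.2), and behind the gelADSC values 6641 and 4624 reads. These intervals cover counting error only. The control libraries thus differed from each other by 2.18-fold, beyond counting error, whereas the gelADSC libraries differed by 1.19-fold. Inmt stood at the 29.5 and 16.4 percentile of the 11070 tested genes in the controls and at the 98.0 and 97.7 percentile in gelADSC.

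Gamt, the enzyme of the last step of creatine synthesis, read 7.55 and 12.1 FPKM in control libraries 1 and 3, against 161 and 127 FPKM in gelADSC libraries 2 and 3. The means were 9.83 ± 3.23 and 144 ± 24.3 FPKM (SD, n = 2 each), a difference of 3.76 in mean log2(FPKM + 1), with a pooled SD within groups of 0.35. Again no library of a group reached the range of the other group. The values rested on 142 and 207 reads in the controls and 3706 and 2407 in gelADSC. Within the controls the order of the libraries was opposite to that of Inmt, since Gamt was 1.60-fold higher in library 3 and Inmt higher in library 1.

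The promoter sequences of Inmt and Gamt are shown because these are the members whose transcripts stood apart between the groups. Each is the 250 bases before the transcription start in RefSeq (GRCm38.p6), from chr6:55174991-55175240 for Inmt and chr10:80261013-80261262 for Gamt, both on the minus strand and written 5′ to 3′. Capitals mark TATAAA in Inmt and the GC box GGGCGG, here as its reverse complement CCGCCC, in Gamt.
Inmt: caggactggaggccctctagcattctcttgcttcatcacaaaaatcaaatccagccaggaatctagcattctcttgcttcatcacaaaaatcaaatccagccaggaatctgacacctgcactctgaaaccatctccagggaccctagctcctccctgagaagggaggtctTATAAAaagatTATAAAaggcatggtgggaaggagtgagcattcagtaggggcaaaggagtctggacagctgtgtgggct
Gamt: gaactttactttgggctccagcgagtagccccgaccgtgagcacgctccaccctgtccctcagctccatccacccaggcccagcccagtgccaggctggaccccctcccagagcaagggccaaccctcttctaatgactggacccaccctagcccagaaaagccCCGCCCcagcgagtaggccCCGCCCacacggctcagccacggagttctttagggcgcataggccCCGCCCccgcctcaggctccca
The pair of promoters differed in these features. Inmt held TATAAA in 2 places, from 80 to 75 and from 69 to 64 bases before the start, a motif found on either strand in 13.6% of 32851 promoter windows of 300 bases (250 before to 50 after a start). None of the other matched members held it, and 46 bases of the Inmt promoter occur in 2 adjoining copies, starting 235 and 189 bases before the start. The Gamt window held 4 GC boxes on either strand, 3 of them in the stretch shown, and 35.7% of all windows held at least 1. Tpmt, which did not stand apart between the groups, held 7. GC content was 47.7% for the Inmt window and 66.0% for Gamt, against a median of 52.7% over all windows. Nnmt had no promoter window, so motifs were searched in the other members only. Among those, the C/EBP motif TTGCNNCAA (2.08% of windows) and the HNF4A motif CAAAGTCCA (0.475%) were found on neither strand. The E-box CACGTG (7.15%) and the glucocorticoid receptor core ACANNNTGT (6.85%) were not found either. The FoxA motif TGTTTAC (3.65%) and the AP-1 motif TGANTCA (7.81%) were found in As3mt alone, and the STAT motif TTCNNNGAA (8.30%) in Pemt alone. GCGTG, the core bound by the aryl hydrocarbon receptor (32.4%), was found in Gamt, Tpmt and As3mt. A match describes letters and not a bound site.

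Pemt, which makes phosphatidylcholine in the liver, had the highest level of the 7 in both controls. It read 185 and 235 FPKM in control libraries 1 and 3, against 205 and 172 FPKM in gelADSC libraries 2 and 3 (210 ± 36.0 and 189 ± 23.3 FPKM, SD, n = 2 each), a log2 difference of -0.15 with a pooled SD of 0.22. Nnmt, which methylates nicotinamide, read 144 and 205 FPKM in the controls, against 201 and 131 FPKM in gelADSC (174 ± 43.3 and 166 ± 49.5 FPKM, n = 2 each), a log2 difference of -0.08 with a pooled SD of 0.40. For both genes the values of the groups interleaved, and the libraries of a group differed more than the group means. With 2511 to 6198 reads behind each Nnmt and Pemt value, counting error was small beside that spread.

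The enzymes for drugs, arsenic and histamine were less abundant and also interleaved between the groups. As3mt read 22.2 and 26.1 FPKM in control libraries 1 and 3, against 24.7 and 20.9 FPKM in gelADSC libraries 2 and 3, a log2 difference of -0.08 (pooled SD 0.16). Tpmt read 15.0 and 19.1 FPKM in the controls, against 14.4 and 16.1 FPKM in gelADSC, a log2 difference of -0.14 (pooled SD 0.18). Hnmt read 8.79 and 9.85 FPKM in the controls, against 8.93 and 12.1 FPKM in gelADSC, a log2 difference of 0.15 (pooled SD 0.21). All 3 differences were smaller than the spread within groups, and the read counts behind them ran from 287 for Hnmt in control library 1 to 1054 for As3mt in gelADSC library 2.

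For 4 of these 5 small differences the sign depended on the scaling between libraries. Over all tested genes the median log2 change was -0.25, and median ratio scaling, which removes that shift, turned the differences of Pemt, Nnmt, As3mt and Tpmt positive (0.14, 0.21, 0.20 and 0.13). With quantile normalization Nnmt, As3mt and Tpmt were positive as well (0.02, 0.25 and 0.19) and Pemt stayed negative (-0.04). Hnmt was positive under both, as with the deposited values, at 0.41 and 0.43, and its groups then no longer overlapped. For Inmt the differences were 6.17 and 6.02 and for Gamt 4.04 and 3.94. A difference that misses separation here does not show that a gene was unaltered, since 2 libraries a group bound it only loosely.

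**Figure D2:**
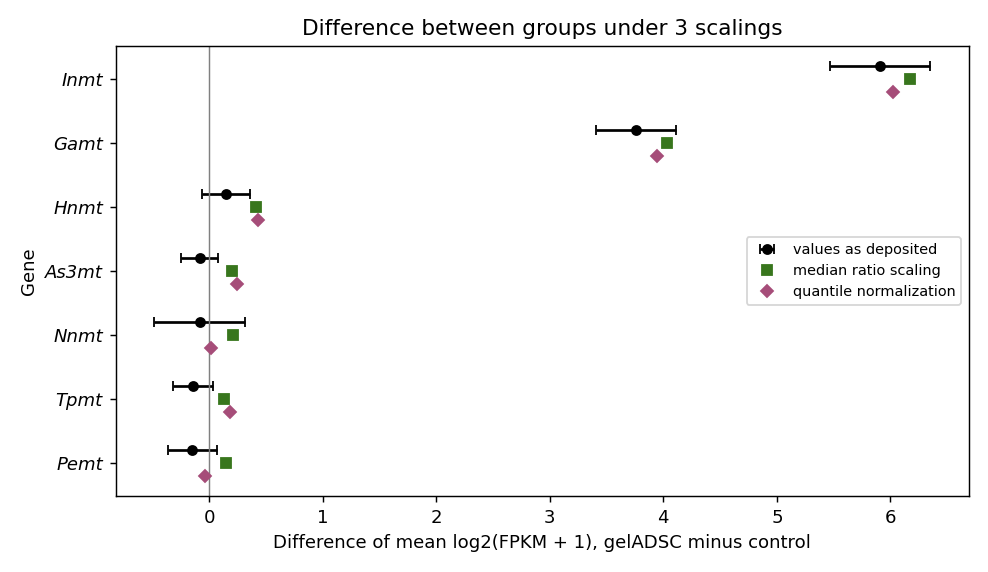
Mean log2(FPKM + 1) of gelADSC less that of the controls (x), for each gene (y), with the values as deposited (black circles, bars show the pooled SD within groups of 2 libraries), median ratio scaling (green squares) and quantile normalization (purple diamonds). Inmt and Gamt lie at 3.76 or more under all 3 scalings, and the other 5 genes between -0.15 and 0.43.

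The order of the levels was rearranged. In control library 1 the order from high to low was Pemt, Nnmt, As3mt, Tpmt, Hnmt, Gamt and Inmt, and in control library 3 Gamt and Hnmt changed places. In both gelADSC libraries the order was Inmt, Pemt, Nnmt, Gamt, As3mt, Tpmt and Hnmt. Pemt and Nnmt were neighbours in every library, with group means less than their summed SDs apart, and so were Gamt and Hnmt in the controls and Nnmt and Gamt in gelADSC. FPKM is scaled by gene length, so comparing levels between genes rests on the lengths used. The apparent length was 1237 bases for Pemt, against a longest GENCODE M21 transcript of 1003. For Inmt it was 1023 against 1077 bases. The order of genes with close levels, such as Inmt and Pemt in gelADSC, may therefore depend on the lengths used.

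Ratios between members of the same library do not depend on a scaling of whole libraries by 1 factor. Inmt stood to its relative Nnmt at 0.0311 and 0.0100 in the controls and at 1.33 and 1.72 in gelADSC, so that Nnmt was the more abundant of the pair in the controls and Inmt in gelADSC. The ratio of Gamt to Pemt, the members that make creatine and phosphatidylcholine, was 0.0409 and 0.0514 in the controls and 0.784 and 0.734 in gelADSC. By contrast, the ratio of Nnmt to Pemt ran from 0.758 to 0.977 over the 4 libraries, with the control values of 0.778 and 0.870 inside the range of the gelADSC values.

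Together the 7 transcripts summed to 386 and 510 FPKM in control libraries 1 and 3 and to 881 and 703 FPKM in gelADSC libraries 2 and 3. Without Inmt and Gamt the sums were 374 and 495 FPKM against 454 and 352 FPKM, which interleave. Inmt made up 1.16% and 0.403% of the sum in the controls and 30.2% and 31.9% in gelADSC, and Gamt 1.95% and 2.38% against 18.3% and 18.0%. Pemt made up 47.8% and 46.2% in the controls and 23.3% and 24.5% in gelADSC, and Nnmt 37.2% and 40.2% against 22.8% and 18.6%, although the FPKM of both overlapped.

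**Figure D3:**
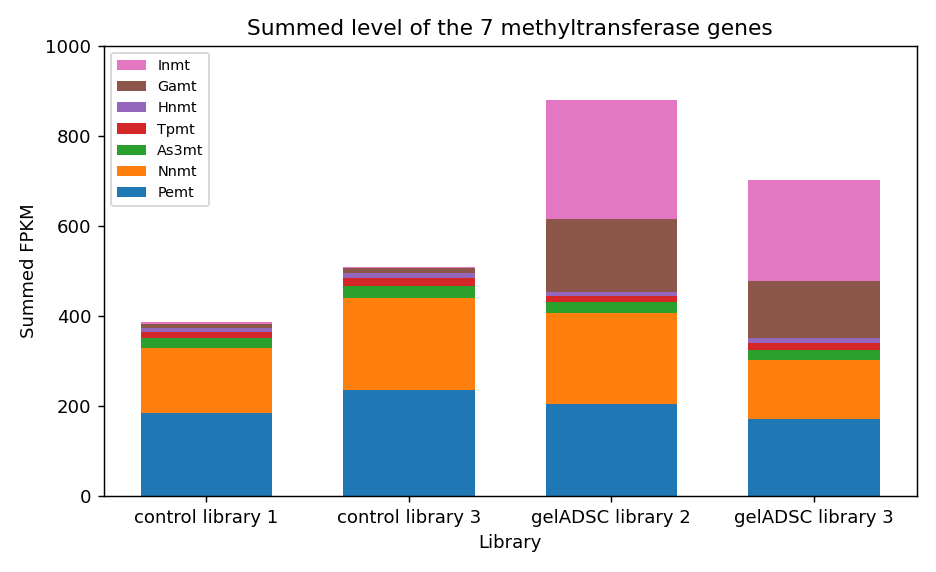
Summed FPKM (y) of the 7 genes in each library (x), stacked by gene. The gelADSC bars reach 881 and 703 FPKM against 386 and 510 FPKM in the controls, and the added height is made of Inmt (pink) and Gamt (brown).

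Genes of the pathways that feed these enzymes or share their substrates were examined in 9 lists. Of 119 listed symbols, 118 were found in the table and 97 were tested, in a limma fit over all 11070 genes with Benjamini-Hochberg adjustment. Of these 97, 22 were higher (22.7%) and 16 lower (16.5%) in gelADSC at an adjusted p under 0.05. Over all tested genes 6.92% were higher and 17.5% lower. The share lower was thus near that of all genes and the share higher was above it. These shares are descriptions, as lists and members were chosen with earlier results known. Of the 38 called list genes, 10 kept their call under all 10 alternatives tried, namely Afmid, Aox3, Haao, Acmsd, Sardh, Shmt1, Mthfd1, Aldh7a1, Mettl7a1 and Gatm, and none of the 38 changed direction under any of them. The other 28 lost it at least without control library 1, which also took all tested genes from 766 higher and 1936 lower to 303 and 331. Without gelADSC library 2 the count lower was 1209. All tested genes split into 952 higher and 948 lower with median ratio scaling and 931 and 1000 with quantile normalization. With no filter on low values 17 of the 38 lost their call, at adjusted p values of 0.0542 to 0.158.

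**Figure D4:**
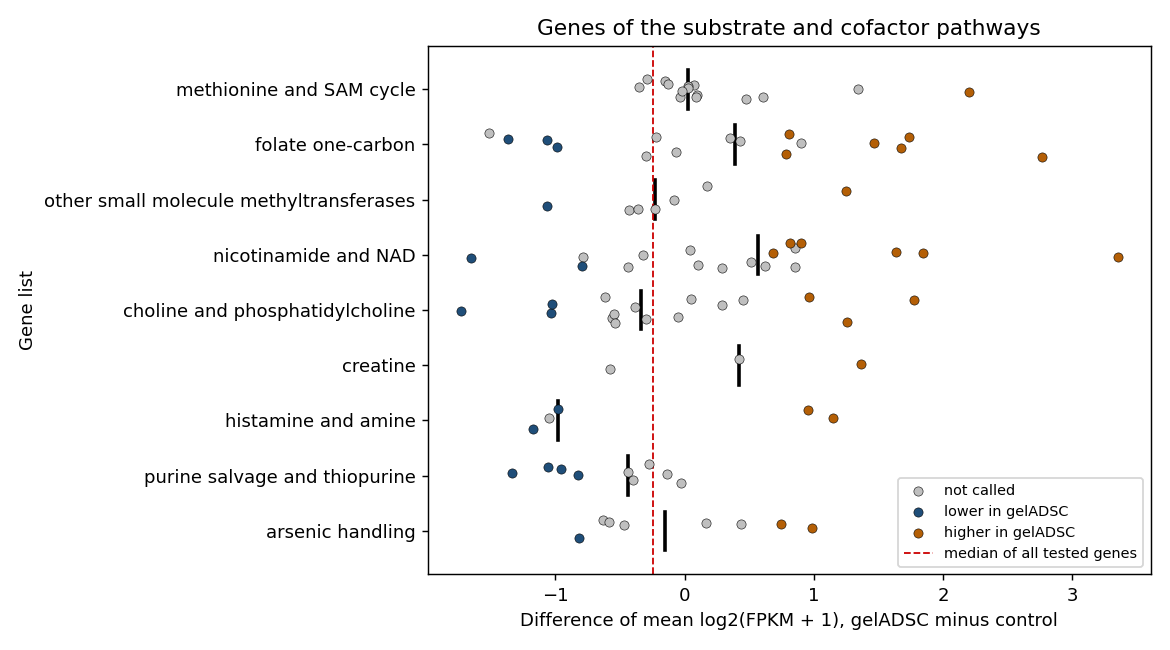
Mean log2(FPKM + 1) of gelADSC less that of the controls (x), for the 97 tested genes of 9 lists (y), with genes called higher in orange, called lower in blue and not called in grey. Black bars are list medians and the dashed line is the median of all tested genes, -0.25.

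In the methionine and SAM cycle, 1 of 15 tested genes was called, Gnmt, which methylates glycine and is an abundant SAM-using enzyme of hepatocytes. Gnmt read 232 and 293 FPKM in the controls, against 1612 and 895 FPKM in gelADSC (log2 change 2.20, SE 0.30, limma adjusted p = 0.00182), and no value of a group reached the other. Mat1a, the liver enzyme that makes SAM, read 558 and 1037 FPKM in the controls, against 1086 and 605 FPKM in gelADSC (log2 change 0.09, adjusted p = 0.874). Ahcy, which clears S-adenosylhomocysteine, read 122 and 134 against 221 and 143 FPKM (adjusted p = 0.178). Bhmt, which remakes methionine from betaine, read 110 and 183 FPKM in the controls, against 742 and 175 FPKM in gelADSC libraries 2 and 3, so that library 2 alone was high (adjusted p = 0.116). The list median was 0.03. Without control library 1 the adjusted p of Gnmt was 0.0641 and 0 genes of the list were called, and without gelADSC library 3, Bhmt, Cth and Gnmt were higher.

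Folate genes, which supply methyl groups for making methionine, went both ways, with 6 of 16 higher, 3 lower and a median of 0.39. Sardh, which breaks down the sarcosine that Gnmt makes, read 27.4 and 34.3 FPKM in the controls, against 254 and 180 FPKM in gelADSC (log2 change 2.77, SE 0.23, limma adjusted p = 0.000194). Aldh1l1, which oxidises formyltetrahydrofolate, rose 3.37-fold, Shmt1, the cytosolic serine hydroxymethyltransferase, 3.21-fold and Mthfd1 2.82-fold. Fpgs was also higher, a call lost without control library 1, control library 3 or gelADSC library 3. Slc19a1, the reduced folate carrier, fell from 9.32 and 6.47 FPKM to 2.38 and 2.43 FPKM (adjusted p = 0.00463), with Mthfd1l also lower. Without control library 1 the counts were 3 higher and 0 lower, with 0.104 for Aldh1l1 and 0.0555 for Slc19a1. With median ratio scaling they were 7 and 1.

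Of other small molecule methyltransferases, 7 of 12 found in the table were tested, with 1 higher, 1 lower and a median of -0.23. Mettl7a1 read 60.5 and 74.0 FPKM in the controls, against 164 and 157 FPKM in gelADSC (log2 change 1.25, SE 0.19, limma adjusted p = 0.00337). Comtd1 read 5.11 and 3.03 against 1.43 and 1.33 FPKM (log2 change -1.06, adjusted p = 0.0203, and 0.140 without control library 1, where 0 were lower). Pnmt, the adrenaline-forming relative of Inmt and Nnmt, was listed at 0 in all 4 libraries.

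Around Nnmt, genes of nicotinamide and NAD metabolism numbered 6 of 18 higher and 2 lower, with a median of 0.57. Aox3, an aldehyde oxidase, rose 3.62-fold, from 28.4 and 42.9 FPKM to 146 and 112 FPKM (log2 change 1.84, SE 0.25, limma adjusted p = 0.00169). Afmid and Haao, enzymes that take tryptophan towards NAD, rose 14.6-fold and 3.08-fold, and Acmsd, which diverts the same route away from NAD, fell from 25.4 and 39.7 FPKM to 8.13 and 10.9 FPKM (adjusted p = 0.0033). Naprt, Qprt and Aox1 were also higher and Cd38, which consumes NAD, lower. The call of Aox1 was lost with no filter and on leaving out any 1 library. Nampt, which returns nicotinamide to NAD and so shares the substrate of Nnmt, read 17.7 and 25.1 against 20.2 and 11.6 FPKM (adjusted p = 0.282). Without control library 1 the counts were 3 higher and 1 lower, without gelADSC library 2 they were 4 and 2, and without gelADSC library 3 they were 7 and 1. Under median ratio scaling and under quantile normalization 6 were higher and 1 lower, with Cd38 (0.197 and 0.218) and Qprt (0.0929 and 0.0957) losing their calls.

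Among choline and phosphatidylcholine genes, the setting of Pemt, 3 of 16 were higher and 3 lower, with a median of -0.34. Chka, a choline kinase and the entry of the other route to phosphatidylcholine, read 114 and 51.1 FPKM in the controls, against 20.2 and 24.7 FPKM in gelADSC (log2 change -1.73, SE 0.34, limma adjusted p = 0.00888). Chpt1, which ends that route, rose 2.51-fold, while Lpcat3, which remodels phosphatidylcholine, fell with a log2 change of -1.03. Aldh7a1, which makes betaine from choline with Chdh, rose 3.46-fold, from 38.5 and 50.9 FPKM to 145 and 164 FPKM, with Chdh higher and Ptdss2, a phosphatidylserine synthase, lower. Leaving out control library 1 gave 1 higher and 0 lower, with adjusted p values of 0.0535 for Chka, 0.113 for Chpt1 and 0.111 for Lpcat3. With median ratio scaling 4 were higher and 1 lower and with quantile normalization 5 and 0, the adjusted p being 0.0620 and 0.0623 for Lpcat3 and, with quantile normalization, 0.0594 for Chka.

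In the creatine list 3 of 6 genes were tested and Gatm, which makes the guanidinoacetate that Gamt methylates, was higher. Gatm read 2.36 and 2.48 FPKM in the controls, against 7.22 and 8.51 FPKM in gelADSC (log2 change 1.37, SE 0.21, limma adjusted p = 0.00292). Its level stayed below that of Gamt, with a ratio of Gamt to Gatm of 3.19 and 4.88 in the controls and 22.3 and 14.9 in gelADSC. Slc6a8, the creatine transporter, read 7.91 and 5.25 against 2.91 and 5.40 FPKM (adjusted p = 0.175). Without gelADSC library 3, Slc6a8 was lower.

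Of 5 tested genes of histamine and amine handling, next to Hnmt and Inmt, 2 were higher and 2 lower. Hdc, which makes histamine, fell from 16.6 and 14.2 FPKM to 7.04 and 7.59 FPKM (log2 change -0.98, SE 0.20, limma adjusted p = 0.00976), and Slc22a3, a transporter of organic cations, from 2.35 and 2.56 FPKM to 0.597 and 0.468 FPKM. Ddc, which makes tryptamine from tryptophan and so a substrate of Inmt, read 11.0 and 16.7 FPKM in the controls, against 22.8 and 32.7 FPKM in gelADSC (adjusted p = 0.0305), and Maob, a monoamine oxidase, rose 2.26-fold. No gene was called without control library 1, with adjusted p values of 0.0786 for Hdc, 0.0692 for Slc22a3, 0.212 for Ddc and 0.0734 for Maob. Ddc was also lost without gelADSC library 3 (0.128) and with median ratio scaling (0.0577), which left 1 higher. Maoa, the other monoamine oxidase, was lower without control library 3 or gelADSC library 3.

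Purine salvage genes, listed for the thiopurine substrates of Tpmt, were 0 higher and 4 lower of 9 tested. Hprt, which activates thiopurine drugs, fell from 103 and 77.1 FPKM to 38.9 and 46.1 FPKM (log2 change -1.05, SE 0.21, limma adjusted p = 0.0103), Ada, adenosine deaminase, fell 3.28-fold, Impdh1 2.12-fold and Aprt 2.01-fold. Xdh, which breaks thiopurines down, was at 47.4 and 50.3 against 47.5 and 48.2 FPKM (adjusted p = 0.920). Without control library 1, 0 were called (adjusted p = 0.0722 for Ada, 0.0951 for Hprt, 0.166 for Impdh1 and 0.198 for Aprt), and without gelADSC library 3, 2 were. With median ratio scaling 2 were lower, with 0.0528 for Impdh1 and 0.126 for Aprt, which quantile normalization put at 0.135. Impdh1 had an adjusted p of 0.0655 without gelADSC library 2 and 0.113 without library 3, and Aprt 0.0569 without library 3.

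Of 8 tested genes of arsenic handling, listed for As3mt, 2 were higher and 1 lower. Abcc2, an exporter of conjugates into bile, rose from 45.5 and 50.7 FPKM to 105 and 88.5 FPKM (log2 change 0.99, SE 0.19, limma adjusted p = 0.00867). Aqp9, a channel that also carries arsenite, rose 1.68-fold (adjusted p = 0.0332), and Txn1, thioredoxin, fell 1.75-fold (adjusted p = 0.0328). Without control library 1, 0 were called (0.0849 for Abcc2, 0.185 for Aqp9 and 0.205 for Txn1), and without gelADSC library 2, 1 was higher and 0 lower (0.123 for Aqp9 and 0.194 for Txn1). Without control library 3, Gclc and Txnrd1 were lower and Txn1 had an adjusted p of 0.0697, and without gelADSC library 3, Gclc and Txn1 were lower. The calls of Aqp9 and Txn1 were also lost with median ratio scaling (0.0601 and 0.108) and quantile normalization (0.0540 and 0.0908).

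Other cell types could add to these bulk levels. The summed level of 6 hepatocyte markers was 55812 to 64572 FPKM in the controls and 45159 to 66739 FPKM in gelADSC. Of these, Ttr (1935 and 1927 against 2785 and 3503 FPKM) and Apob were higher in both gelADSC libraries. Apoa1 (11512 and 13132 against 6497 and 8784 FPKM) and Fgb were lower in both, while Alb and Ahsg overlapped. Adipose stromal markers (7) summed to 38.3 to 59.5 FPKM against 33.9 to 54.7 FPKM. Of these, Lum (5.97 and 2.82 against 13.4 and 14.6 FPKM) and Thy1 were higher in both gelADSC libraries. Ly6a (41.5 and 32.3 against 31.5 and 12.5 FPKM) was lower in both, and the rest overlapped. Stellate cell markers (7) summed to 67.2 to 136 against 96.2 to 112 FPKM, most of it Dcn at 55.3 to 113 FPKM, while Lrat, Rgs5 and Reln were higher in both gelADSC libraries and 0 were lower in both. Endothelial markers (6) summed to 77.8 to 84.0 against 86.8 to 90.4 FPKM, with Stab2, Kdr and Clec4g higher and Pecam1 and Lyve1 lower in both gelADSC libraries. Markers of Kupffer cells and macrophages (7) summed to 253 to 256 FPKM in the controls and 98.4 to 198 FPKM in gelADSC. Of these, Cd68 (99.5 and 62.3 against 16.6 and 11.7 FPKM) and Vsig4 were lower in both gelADSC libraries, Adgre1 (2.97 and 4.10 against 12.7 and 4.68 FPKM) was higher, and the other 4 overlapped, with Marco at 29.8 FPKM in gelADSC library 3 and 99.3 to 130.1 FPKM elsewhere. Cholangiocyte markers (4) summed to 13.1 to 20.2 against 5.53 to 5.93 FPKM. Sox9 (11.8 and 9.48 against 2.02 and 1.52 FPKM) and Krt19 were lower in both gelADSC libraries, while Krt7 and Epcam overlapped. Sums of 4 lymphocyte markers were 0.193 to 0.212 FPKM and 1.20 to 1.91 FPKM. Erythroid markers (4) summed to 9.99 to 11.0 against 38.9 to 40.1 FPKM, nearly all of it Alas2, with Hba-a1 and Hbb-bt listed at 0. Neutrophil markers (3) summed to 63.6 to 69.8 against 24.5 to 70.0 FPKM. Of these, S100a8 (34.9 and 34.9 against 32.7 and 9.75 FPKM) and Retnlg were lower in both gelADSC libraries, and S100a9 overlapped. Adipocyte markers (5) summed to 1.07 to 7.12 against 0.107 to 4.49 FPKM. Of the mast cell and basophil list (5), Tpsb2 and Mcpt8 were listed at 0 throughout. The sums were 2.77 to 2.85 against 3.15 to 3.43 FPKM, nearly all of it Kit, with Cpa3 and Ms4a2 at 0.0282 FPKM or less. The part of these cell types in the levels of the methyltransferases was not tested.

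The tested genes whose pattern over the 4 libraries lay nearest to Inmt, by Euclidean distance of centred log2(FPKM + 1), were Serpina6 (0.36), Cyp2c54 (0.50) and Ces1d (0.52). Serpina6, corticosteroid-binding globulin, read 0.995 and 0.529 FPKM in the controls, against 129 and 95.0 FPKM in gelADSC, so that it too was lowest in control library 3. Nearest to Pemt, the member with the most negative difference, were Rab27a (0.05), Cep63 (0.06) and 1600020E01Rik (0.06), whose groups overlapped as those of Pemt did. Nearest to Gamt, added after its values were seen, were Slc3a1 (0.24) and Car5a (0.29). With 4 libraries such a likeness rests on few points. Cyp2c54 and Ces1d have close relatives, so their own share of reads is uncertain.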

How the data were processed

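Total RNA of liver was sequenced from polyadenylated, stranded libraries, per the labels' protocols. The authors deposited 1 table of 24421 gene symbols and 4 columns, taken here as FPKM, since its header names no unit. Trimmomatic 0.38, TopHat2 2.1.1 and Cufflinks 2.2.1 are named, per the submitters' processing notes, with build hg19 although the symbols are mouse. The annotation and the counting step are not given in the sources used, so the only coordinates printed are those of RefSeq promoters (GRCm38.p6, 6 of 7 genes matched). Column numbers (1 and 3, 2 and 3) do not match the sample titles, so columns were placed by group.

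Genes averaging 1 FPKM or more were tested as log2(FPKM + 1) with limma 3.58.1 in R 4.3.3 (mean-variance trend, two-sided, Benjamini-Hochberg over 11070 genes, threshold 0.05), which was checked on simulated data. Log2 changes on that scale understate low genes, whereas folds are ratios of mean FPKM with no pseudocount. Library totals are estimates. A search found the total at which the highest share of the 3000 lowest values gave a near-whole gene length for 1 read. That total was then refined by least squares. At the final totals 43.7% to 46.6% of these values, by library, lay within 0.02 bases of a whole length. Relative depth came from the most frequent ratio of low values. Reads of the 7 genes are those at the shortest length giving whole reads in all 4 libraries within 0.02, at most 0.00109 off. Neither strand nor multi-mapped reads could be checked.

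The members and lists were chosen with earlier results of these data known. Named are the 7 genes, up to 4 called genes of each list with the largest change, listed genes sharing a substrate with a member, and the 3 genes nearest in pattern. Other called list genes were named after their values were seen, and some are not reported here. Of the 119 list symbols, 2 were found under a synonym and Lrtomt was not matched. The GC box was added after seeing the promoters. Alternatives were pseudocounts of 0.1 and 5, median ratio scaling, quantile normalization, no filter, no trend and leaving out each library.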

Additional observations from a re-analysis of the deposited data

How the results depend on the processing

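Inmt and Gamt were the members with groups apart and at least 2-fold different under every alternative tried. Their log2 differences were 4.93 to 6.33 for Inmt and 3.33 to 4.07 for Gamt. Nothing is read from this, as the share of all tested genes that met it was not worked out for the alternatives. Without the 2-fold condition, Hnmt also stood apart under both scalings, and other members did when 1 library was left out. The other 5 changed sign in at least 1 alternative and stayed between -0.39 and 0.43. No paired analysis was possible because the columns of the 2 groups share only 1 number, so the planned replicate block was not run. The causes of the following shifts were not tested.

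With median ratio scaling 948 of all genes were lower, with quantile normalization 1000 and with no filter 730. Median ratio scaling gave 1 folate, 1 nicotinamide, 1 choline, 2 purine and 0 arsenic genes lower, and 1 amine and 1 arsenic gene higher. Quantile normalization gave 1 nicotinamide, 0 choline and 0 arsenic genes lower, and 5 choline and 1 arsenic genes higher. No filter gave 1 folate, 1 nicotinamide, 2 purine, and 0 other methyltransferase, choline and arsenic genes lower, with 1 amine and 1 arsenic gene higher.

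Leaving out 1 library at a time, with the lone library assumed to vary like the other group, gave 303 to 775 genes higher and 331 to 1708 lower overall. By list, higher and lower counts ran from 0 to 3 and 0 to 0 for methionine and SAM, 3 to 7 and 0 to 4 for folate, 3 to 7 and 1 to 2 for nicotinamide, 1 to 3 and 0 to 4 for choline, 0 to 2 and 0 to 3 for amines and 0 to 2 and 0 to 2 for arsenic. Lower counts ran from 0 to 1 for other methyltransferases, 0 to 1 for creatine and 0 to 4 for purines. Leaving out control library 1 cost more of the 38 list calls than leaving out any other library. These losses do not rank the libraries by weight, since each such fit took its spread from the group left whole. A pseudocount of 5 cost 3 of the 38 calls, the fit without a trend 2 and a pseudocount of 0.1 cost 0. With 2 libraries a group, small differences are beyond reach.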

Other observations

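The genes that adjoin Inmt and Gamt in RefSeq order were looked up after the values of both were seen. Beside Inmt, Crhr2 read 0 and 0 FPKM in the controls, against 0.0417 and 0.0337 FPKM in gelADSC, and Mindy4, listed as Fam188b, read 0.671 and 0.392 against 0.694 and 0.674 FPKM. Beside Gamt, Ndufs7, a subunit of respiratory complex I, read 105 and 90.3 FPKM in the controls, against 48.8 and 57.0 FPKM in gelADSC, the opposite order to Gamt. Dazap1, an RNA-binding protein, read 23.4 and 23.6 against 18.5 and 23.8 FPKM. None of the 4 overlaps Inmt or Gamt in RefSeq.

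Adipoq, Plin1, Lep and Retn, genes of fat cells, were listed above 0 in control library 1 and gelADSC library 2 and at 0 in control library 3 and gelADSC library 3, so that this split ran across the groups. Adipoq read 0.652 and 0.765 FPKM where it was detected.

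The length that gave whole reads was close to the longest GENCODE M21 transcript for Tpmt (2715 against 2708 bases), As3mt (1751 against 1736) and Hnmt (1638 against 1656). It was shorter for Inmt (1023 against 1077), Gamt (944 against 988) and Nnmt (954 against 1043) and longer for Pemt (1237 against 1003).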
